A study of Mus musculus with 20 samples.

Results

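The last step of wild-type (WT) neural differentiation, WT D8 against WT D6, is measured by 4 of the 20 libraries of the series, 2 at each day, taken by genotype and day as the labels give them. The cells are ES-E14TG2a, a line of mouse embryonic stem cells, kept in serum with leukaemia inhibitory factor at D0, then plated on laminin in N2B27, a serum-free medium that lets stem cells become neural, and harvested at D2, D4, D6 and D8. The step is set beside TKO D8 against TKO D6, 4 libraries of the same line and culture whose genotype the labels name but do not define, and beside WT D6 against WT D4, the step before, which uses the same WT D6 libraries. The labels call the replicates biological without saying that they are separate cultures, so p-values measure the spread between these libraries. They give the cell type of every library as embryonic stem cells, but Pou5f1, which encodes the stem cell factor Oct4, stood at 12.5 ± 7.13 CPM at WT D8 and 4.4 ± 1.92 CPM at WT D6, against 1312 ± 39.4 CPM at WT D0 (mean ± SD, n = 2).

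Neurons arise from dividing neural progenitors in a set order. Proneural helix-loop-helix factors such as Neurog2 raise Notch ligands and a second tier of transcription factors, the cell leaves the cycle, and genes of the neuronal cytoskeleton, then of axon adhesion, synapses, ion channels and transmitter use, are switched on. Splicing changes alongside: Ptbp1, a splicing repressor of non-neuronal cells, gives way to Ptbp2, and Srrm4, a neuronal splicing activator, brings in very short exons called microexons. The transcripts of a bulk library come from all its cells, and more cells of a type and more RNA per cell cannot be told apart here.

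Estimated counts per library totalled 30886166 and 29314561 at WT D8, and 31542594 and 29363161 at WT D6. Genes with a count numbered 21741 and 21543 at WT D8, and 20466 and 20128 at WT D6. Of 18555 genes tested with edgeR over all 20 libraries, 4935 were higher at WT D8 (26.6%) and 5636 lower (30.4%) with p-values adjusted by Benjamini-Hochberg and a limit of 0.05. The 2 libraries of each day did not overlap with those of the other for 14647 genes (78.9%), in either direction. Levels are given as CPM, counts per 1e+06 after scaling. A value pair is replicate 1 then replicate 2, and log2 fold changes are WT D8 over WT D6 with their standard errors. Beside genes taken by the rule for named genes, others are named for their known roles and were chosen after their values were seen.

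The genes that rose and those that fell differed in level and in the size of change. A change of at least 2-fold was called for 2689 higher genes and 928 lower ones, and one of at least 8-fold for 453 higher genes and 61 lower ones. Level here is the mean over all 10 groups, WT and TKO from D0 to D8. Among the 4055 genes below 1 CPM by that mean, 24.9% were higher at WT D8 and 3.95% lower. Between 10 and 100 CPM, 25.1% of 7807 genes were higher and 42.1% lower, and among the 2379 genes at 100 CPM or more, 13.5% were higher and 59.5% lower. The share of genes that fell was thus lowest among scarce genes and highest among abundant ones.

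**Figure D1:**
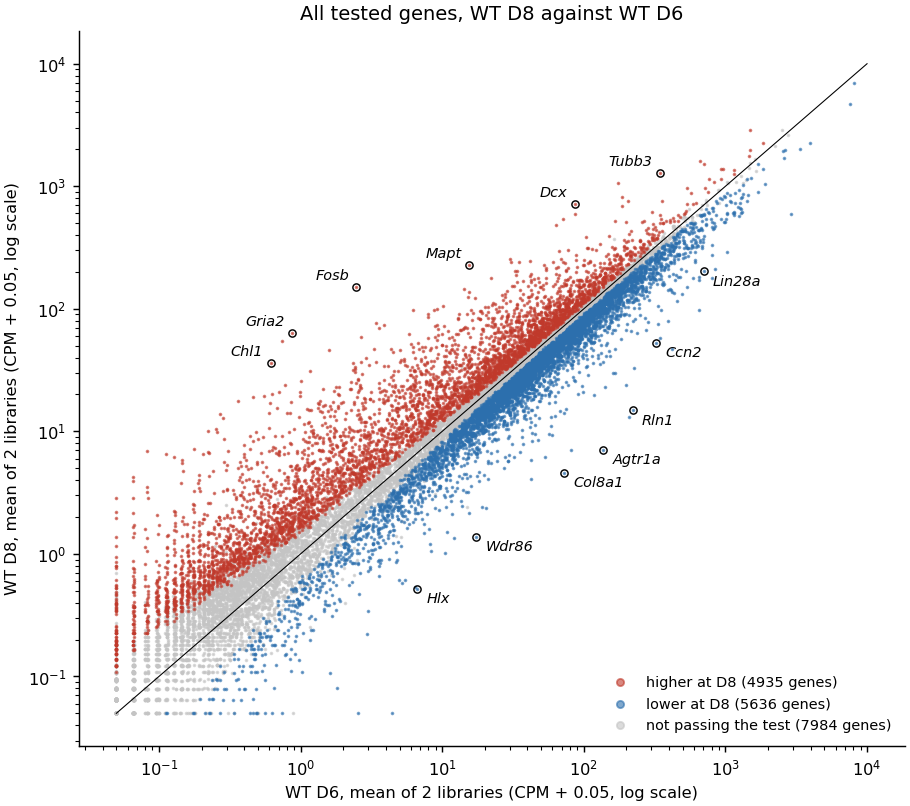
Mean CPM of the 2 WT D8 libraries (vertical axis) against the mean of the 2 WT D6 libraries (horizontal axis), both on log scales after adding 0.05, with 1 point per tested gene. Red points are the 4935 genes higher at WT D8, blue the 5636 lower, grey the 7984 that did not pass, and the line marks equal levels. Dcx, Mapt and Gria2 lie well above the line, and Agtr1a, Rln1 and Col8a1 well below it.

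Proneural and neurogenic transcription factors were the first group examined. Of 27 tested members, 18 were higher at WT D8, none was lower and 9 did not pass, with a median log2 fold change of 0.84, against 0.00 over all tested genes. The factors that start neurogenesis had small changes. Neurog2 stood at 22.7 and 27.1 CPM at WT D8, against 17.6 and 13.2 CPM at WT D6, a log2 fold change of 0.70 ± 0.23 with an adjusted p of 0.0166 in edgeR, which was 0.156 without WT D8 replicate 2 and 0.177 without WT D6 replicate 2. Neurod1 had 26.5 and 29.5 CPM at WT D8 and 19.8 and 16.4 CPM at WT D6 (0.62 ± 0.15, adjusted p = 0.00184). In both genes the D8 pair lay above the D6 pair. Neurog1, with 51.8 and 48.2 CPM at WT D8 and 44 and 42 CPM at WT D6, did not pass (adjusted p = 0.154), nor did Neurod4, whose 23.1 and 28 CPM at WT D8 overlapped its 24.9 and 19.2 CPM at WT D6 (adjusted p = 0.313).

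The 4 largest called changes of the list were those of Myt1l, Nhlh2, Myt1 and Scrt2, all on the side of WT D8. Myt1l, a zinc finger factor that represses non-neuronal genes, reached 20.1 and 18.6 CPM at WT D8, against 0.818 and 1.06 CPM at WT D6 (log2 fold change 4.36 ± 0.26, adjusted p = 2.45e-10). Nhlh2, a helix-loop-helix factor of newborn neurons, had 206 and 203 CPM at WT D8 and 35.5 and 30.2 CPM at WT D6, a change of 2.64 ± 0.10. Myt1 averaged 96.7 ± 0.798 CPM at WT D8 and 18.7 ± 1.39 CPM at WT D6, and Scrt2, a repressor of the Snail family found in neurons, 166 ± 2.47 CPM at WT D8 and 33.8 ± 7.6 CPM at WT D6 (SD, n = 2).

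Genes of the neuronal cytoskeleton and axon growth rose in nearly all members, 27 of 30 higher and none lower, with a median of 1.75. Tubb3, the neuronal beta tubulin, had 1275 and 1298 CPM at WT D8 and 346 and 343 CPM at WT D6 (1.90 ± 0.19, adjusted p = 1.35e-07). Dcx, doublecortin, which binds microtubules in migrating neurons, had 713 and 724 CPM at WT D8, against 98 and 73.9 CPM at WT D6 (3.06 ± 0.13, adjusted p = 9.9e-12). Map2, the microtubule protein of dendrites, had 539.7 and 534 CPM at WT D8 and 80.2 and 63.4 CPM at WT D6 (2.90 ± 0.11). In all 3 genes both D8 libraries lay several-fold above both D6 libraries.

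Mapt, which encodes the axonal protein tau, showed the largest change of that list, with 237 and 218 CPM at WT D8 and 16.5 and 14.5 CPM at WT D6 (3.87 ± 0.12, adjusted p = 3.4e-13). Gap43, a growth cone protein, averaged 257 ± 0.468 CPM at WT D8 and 30.2 ± 0.493 CPM at WT D6. Among neurofilament genes, Nefl averaged 1067 ± 40.9 and Ina 595 ± 2.3 CPM at WT D8, against 173 ± 9.93 CPM for Nefl and 86.5 ± 8.05 CPM for Ina at WT D6. Stmn2, which regulates growth cone microtubules, had 299 and 300.3 CPM at WT D8 and 77 and 77.5 CPM at WT D6 (1.96 ± 0.10), but it was not switched on anew, since it averaged 127 ± 13.2, 135 ± 5.47 and 233 ± 2.54 CPM at WT D0, D2 and D4, and had fallen at D6.

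Neuronal RNA-binding proteins followed, with 17 of 20 members higher, 2 lower and a median of 1.53. Rbfox1, a neuronal splicing factor, had 21.3 and 20.2 CPM at WT D8 and 0.788 and 0.529 CPM at WT D6 (4.96 ± 0.26, adjusted p = 6.65e-11). Celf4 averaged 98.4 ± 0.14 CPM at WT D8 and 8.72 ± 1.34 CPM at WT D6, and Celf6 10.2 ± 1.01 CPM at WT D8 and 1.18 ± 0.128 CPM at WT D6. Elavl3, a neuronal protein that stabilises transcripts, had 300.4 and 297 CPM at WT D8 and 73.3 and 60.5 CPM at WT D6 (2.16 ± 0.12). The microexon activators Srrm3 and Srrm4 rose by 2.59 and 1.79 on the log2 scale, Srrm4 with 161 and 153 CPM at WT D8 and 48.1 and 42.6 CPM at WT D6. Ptbp1 went the other way, with 349 and 351 CPM at WT D8 against 681 and 704 CPM at WT D6 (-0.99 ± 0.06, adjusted p = 2.86e-10), while its neuronal relative Ptbp2 averaged 316 ± 0.719 CPM at WT D8 and 201 ± 13.6 CPM at WT D6 (0.65, adjusted p = 7.91e-06). Of the sequence of Ptbp1, 11.5% by 31-base words also occurs in other genes, so its level is less certain.

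Most genes of both synaptic lists rose. Of 34 genes of synaptic vesicles and release, 31 were higher and 1 lower (median 1.56), and of 31 genes of synaptic adhesion and the postsynaptic density, 26 were higher and none lower (median 1.72). Of 20 synaptotagmins 8 were higher, 3 were lower and 9 did not pass. Rab3c, a vesicle GTPase, had 78.6 and 75.4 CPM at WT D8 and 3.58 and 3.18 CPM at WT D6 (4.51 ± 0.20), and Syt4, a member of the synaptotagmin family of vesicle proteins, 61.7 and 56.8 CPM at WT D8 and 2.82 and 2.38 CPM at WT D6 (4.51 ± 0.19). Snap25, part of the complex that fuses vesicles with the membrane, had 51.6 and 52.5 CPM at WT D8, against 6.3 and 5.59 CPM at WT D6 (3.13 ± 0.13, adjusted p = 6.9e-12). Each of these 3 genes was several-fold above D6 in both D8 libraries. Nrxn3, a presynaptic adhesion protein, averaged 31.9 ± 2.03 CPM at WT D8, against 2.31 ± 0.325 CPM at WT D6. Slitrk1, another synaptic adhesion gene and the largest change of its list, had 6.63 and 6.32 CPM at WT D8 and 0.0909 and 0.0331 CPM at WT D6 (6.59 ± 0.59).

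Axonal adhesion molecules, which bundle and guide growing axons, had the largest median among the structural neuron lists, 2.52, with 15 of 19 higher and 2 lower. Chl1 had 36.5 and 35.9 CPM at WT D8 and 0.697 and 0.43 CPM at WT D6 (5.98 ± 0.29, adjusted p = 6.65e-11). L1cam, mutated in a human hydrocephalus syndrome, had 106 and 107 CPM at WT D8 and 11.5 and 8.77 CPM at WT D6 (3.39 ± 0.18). Cntn5 averaged 12.7 ± 0.506 CPM at WT D8 and 0.234 ± 0.0972 CPM at WT D6, and Nrn1 4.69 ± 0.109 CPM at WT D8 and 0.19 ± 0.0119 CPM at WT D6. For Cntn4, 96 counts at WT D8 stood against 3 at WT D6, a ratio of 29.5 with a 95% counting interval of 9.80 to 146.

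**Figure D2:**
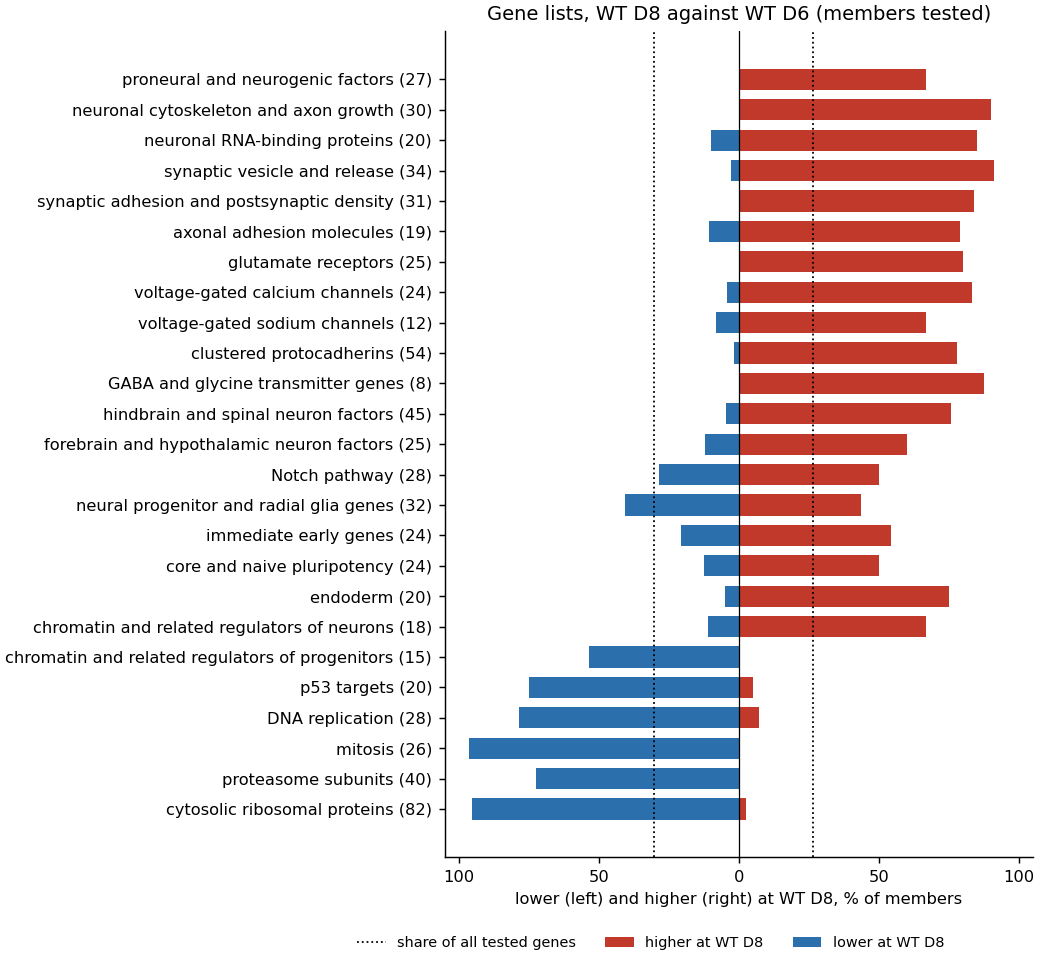
Share of the tested members of each gene list that was higher (red, right) or lower (blue, left) at WT D8 than at WT D6, in percent, with the number tested in parentheses. Dotted lines mark the shares over all tested genes, 26.6% higher and 30.4% lower; neuron lists reach far past the right line and ribosomal protein, mitosis and replication lists past the left one.

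Among transmitter genes, those for making or moving GABA and glycine, the inhibitory transmitters, had the largest median, 3.30, with 7 of 8 members higher and none lower. Gad1, which makes GABA, had 17 and 14.1 CPM at WT D8 and 0.909 and 0.364 CPM at WT D6 (4.58 ± 0.31, adjusted p = 1.67e-09), and its partner Gad2 11 and 10.0 CPM at WT D8 and 0.757 and 0.331 CPM at WT D6 (4.24 ± 0.35). Slc6a5, the glycine transporter of glycinergic neurons, had 15.9 and 12.3 CPM at WT D8 and 0.636 and 0.463 CPM at WT D6 (4.67 ± 0.31). Both D8 libraries exceeded both D6 libraries at least several-fold in each gene. Among 5 glutamate genes, 2 were higher and none lower. Slc17a6, the vesicular transporter that marks many excitatory neurons, had 14.5 and 13.9 CPM at WT D8 and 0.576 and 0.927 CPM at WT D6 (4.24 ± 0.29), whereas Slc17a7, its cortical relative, had 1.45 and 1.26 CPM at WT D8 and 1.7 and 1.22 CPM at WT D6 and did not pass (adjusted p = 0.763). Of 4 acetylcholine genes 3 were higher, led by the choline transporter Slc5a7 at 1.19 ± 0.353 CPM at WT D8 and 0.0771 ± 0.0623 CPM at WT D6, while Chat, the synthetic enzyme, did not pass (adjusted p = 0.0764). Of 13 monoamine genes, 6 were higher and 2 lower, and of 15 neuropeptide genes 5 were higher and 1 lower, among them Cartpt with 35.3 and 32.5 CPM at WT D8 and 4.51 and 3.67 CPM at WT D6. Nts, neurotensin, had 146 counts at WT D8 and 0 at WT D6, at least 44.9-fold higher when WT D6 is set to 3 counts, the limit that a count of 0 allows.

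Glutamate receptors and several channel families rose too. Of 25 glutamate receptor genes 20 were higher and none lower, with a median of 2.21. Gria2, the AMPA receptor subunit that limits calcium entry, had 64.7 and 61.4 CPM at WT D8, against 0.909 and 0.728 CPM at WT D6 (6.25 ± 0.19, adjusted p = 3.18e-13). Grin2b, an NMDA receptor subunit of immature neurons, had 8.33 and 8.78 CPM at WT D8 and 0.667 and 0.232 CPM at WT D6 (4.22 ± 0.35). Of 21 GABA and glycine receptor genes, 10 were higher and 1 lower. Glra2, the fetal glycine receptor, held 131 counts at WT D8 and 0 at WT D6, at least 40.3-fold higher. Of 15 nicotinic and muscarinic receptor genes 4 were higher (26.7%, near the 26.6% over all genes), 2 were lower and 9 did not pass.

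Voltage-gated sodium channels had 8 of 12 members higher and 1 lower (median 2.53, or 1.95 with the member at 0 in a group set to its bound), and calcium channels 20 of 24 higher and 1 lower (median 1.83). Scn3a, the sodium channel of fetal neurons, had 84.6 and 87.3 CPM at WT D8 and 8.51 and 7.35 CPM at WT D6 (3.44 ± 0.16). Cacna2d3, an auxiliary calcium channel subunit, averaged 44.7 ± 2.06 CPM at WT D8 and 4.48 ± 0.347 CPM at WT D6. Of 80 potassium channel genes 43 were higher and 6 lower. In that family 29 tested members were below 1 CPM at WT D8.

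Guidance genes, which steer axons, rose in larger part than they fell. Of 31 semaphorins, plexins and neuropilins 22 were higher and 6 lower, of 21 ephrins and Eph receptors 9 were higher and 3 lower, and of 18 netrins, Slits and their receptors 14 were higher and 1 lower. Robo3, the receptor that lets hindbrain and cord axons cross the midline, had 498 and 464 CPM at WT D8 and 70.9 and 57 CPM at WT D6 (2.91 ± 0.12). Dcc, the netrin receptor, averaged 153 ± 4.71 CPM at WT D8 and 31.2 ± 5.43 CPM at WT D6, and Epha3 31.1 ± 2.7 CPM at WT D8 and 1.12 ± 0.221 CPM at WT D6. The secreted repellent Sema3b fell to 5.75 and 6.44 CPM at WT D8, against 61.4 and 45.2 CPM at WT D6 (-3.13 ± 0.18). Among delta protocadherins, adhesion proteins of the brain, 7 of 9 were higher and none lower, with Pcdh9 at 20.1 and 18 CPM at WT D8 and 0.485 and 0.331 CPM at WT D6 and Pcdh10 at 20.5 and 19.5 CPM at WT D8 and 0.818 and 0.331 CPM at WT D6. Clustered protocadherins, which give neurons their surface identity, had 42 of 54 members higher and 1 lower. Most of them share sequence with relatives, and 9 had under 10% shared 31-base words, all 9 of which were called higher.

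Transcription factors of neuron subtypes rose in both lists. Factors of hindbrain and spinal neurons had 34 of 45 members higher and 2 lower (median 2.06), and those of forebrain and hypothalamic neurons 15 of 25 higher and 3 lower (median 1.31). Lhx1, a marker of spinal and hindbrain interneurons, had 99.8 and 101 CPM at WT D8 and 10.4 and 7.98 CPM at WT D6 (3.44 ± 0.14). Lbx1, which specifies dorsal association interneurons, had 22.8 and 16 CPM at WT D8 and 0.636 and 0.364 CPM at WT D6 (5.25 ± 0.28), and Tlx1 and Tlx3, selectors of glutamatergic dorsal neurons, averaged 9.84 ± 2.57 and 6.49 ± 1.76 CPM at WT D8, against 0.208 ± 0.0801 and 0.349 ± 0.0217 CPM at WT D6. Otp, a factor of hypothalamic and some hindbrain neurons, had 242 and 242 CPM at WT D8 and 33.4 and 27.5 CPM at WT D6 (2.99 ± 0.15). Of factors of cortical neurons, Tbr1 averaged 2.09 ± 0.0969 and Bcl11b 3.43 ± 0.184 CPM at WT D8, against 0.323 ± 0.199 and 0.495 ± 0.143 CPM at WT D6, and both passed as higher.

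Patterning genes, which set position in the neural tube, also moved. Of 24 dorsoventral factors 12 were higher and 5 lower, of 19 midbrain, hindbrain and cord factors 14 were higher and 3 lower, and of 19 anterior factors 11 were higher and 4 lower. Gsx1, a factor of dorsal interneuron progenitors, had 18.5 and 15.7 CPM at WT D8 and 0.454 and 0.662 CPM at WT D6 (4.94 ± 0.32), and En2, a midbrain and anterior hindbrain factor, 12.9 and 13.5 CPM at WT D8 and 1.45 and 1.36 CPM at WT D6 (3.22 ± 0.15). Pax6 and Dbx1, factors of intermediate progenitor domains, fell, Pax6 to 142 and 149 CPM at WT D8, against 221 and 204 CPM at WT D6 (-0.54 ± 0.06, adjusted p = 4.92e-07). Hox genes changed in few members, 4 of 31 higher and 4 lower, and 25 of them were below 1 CPM at WT D8.

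Progenitor genes did not move one way. Of 32 neural progenitor and radial glia genes, 14 were higher and 13 lower, with a median of -0.08. Sox1 and Sox2, early neural factors, fell modestly, Sox1 to 176 and 183 CPM at WT D8, against 269 and 267 CPM at WT D6 (-0.58 ± 0.09), and Sox2 to 190.2 and 189 CPM at WT D8, against 242 and 239 CPM at WT D6 (-0.34 ± 0.06). Lin28a and Hmga2, which mark young progenitors, fell more, Lin28a to 208 and 197 CPM at WT D8, against 702 and 701 CPM at WT D6 (-1.79 ± 0.10), and Hmga2 by 1.97 on the log2 scale. Nes, an intermediate filament of progenitors, was higher at 513 and 554 CPM at WT D8, against 393 and 416 CPM at WT D6 (0.40 ± 0.08), and Fabp7, a lipid carrier of radial glia, rose to 214 and 193 CPM at WT D8, against 29.3 and 38.6 CPM at WT D6 (2.59 ± 0.17). Lin28a and Hmga2 thus fell while Nes and Fabp7 rose, and Pax6, another member of the list, fell with a log2 fold change of -0.54. Of 21 glial genes 11 were higher and 3 lower, with Slc1a2, a glutamate transporter, at 81.3 ± 2.5 CPM at WT D8 and 22.9 ± 3.74 CPM at WT D6, and Nfia and Nfib, which promote glial fate, at 13.8 ± 1.29 and 3.31 ± 0.189 CPM at WT D8, against 3.26 ± 1.0 and 0.254 ± 0.0158 CPM. Gfap, Sox10 and Olig2, which define astrocytes and oligodendrocyte precursors, were all below 1 CPM at WT D8, at 0.162 ± 0.109, 0.0726 ± 0.018 and 0.614 ± 0.0637 CPM.

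Among signalling pathways, Notch genes had 14 of 28 members higher and 8 lower. Dll1, a ligand made by newborn neurons, had 239.9 and 236 CPM at WT D8 and 150.2 and 154 CPM at WT D6 (0.65 ± 0.09, adjusted p = 9.11e-06), and Dner, a neuronal Notch ligand, 75 and 73.8 CPM at WT D8 and 4.21 and 3.47 CPM at WT D6 (4.27 ± 0.16). The Notch target Hes5 had 78.6 and 79.6 CPM at WT D8 and 79 and 90.3 CPM at WT D6 and did not pass (adjusted p = 0.477), while Hes1 and Hes3, related repressors of progenitors, were lower with log2 fold changes of -0.61 and -2.37. The ligands Dll1 and Dner thus rose, and none of these 3 Hes genes did.

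Of 19 retinoic acid genes 5 were higher (26.3%) and 9 lower (47.4%), where 26.6% of all tested genes were higher and 30.4% lower. Of all genes between 10 and 100 CPM 42.1% were lower, and of those at 100 CPM or more 59.5%. The retinoid carrier Crabp1 fell to 199 and 222 CPM at WT D8, against 819 and 869 CPM at WT D6 (-2.003 ± 0.09). The uptake receptor Stra6 fell to 4.86 and 3.23 CPM at WT D8, against 22.7 and 19.5 CPM at WT D6. Hedgehog genes had 9 of 23 higher and 5 lower, with the floor plate factor Foxa2 at 14.3 and 14.1 CPM at WT D8 and 2.12 and 1.99 CPM at WT D6 (2.79 ± 0.19) and Shh itself at 20.6 and 23.6 CPM at WT D8 and 7.21 and 4.77 CPM at WT D6 (1.88 ± 0.20). Wnt genes had 13 of 34 higher and 9 lower, among them Wnt7b at 103 ± 11.9 CPM at WT D8 and 20.1 ± 1.19 CPM at WT D6, and Bmp and Tgfb genes 9 of 29 higher and 9 lower. Fgf and Mapk genes had 19 of 28 higher and 4 lower, a list that includes the immediate early genes Fos and Egr1.

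Genes of cell division fell in most members. Of 26 mitosis genes 25 were lower and none higher (median -0.64), and of 28 DNA replication genes 22 were lower and 2 higher (median -0.46). Aurkb, a mitotic kinase, fell to 57.8 and 56.6 CPM at WT D8, against 179 and 189 CPM at WT D6 (-1.69 ± 0.10), and Mcm6, a subunit of the replicative helicase, to 159 and 169 CPM at WT D8, against 266 and 312 CPM at WT D6 (-0.82 ± 0.07). Mki67, the usual marker of cycling cells, was the mitosis gene that did not pass, with 395 and 412 CPM at WT D8 overlapping 449.6 and 402 CPM at WT D6 (adjusted p = 0.346). Ccnd2, a G1 cyclin of progenitors, fell to 273 and 312 CPM at WT D8, against 987 and 1062 CPM at WT D6 (-1.81 ± 0.10). Cdkn1c, an inhibitor that drives cell cycle exit, was lower at 405 and 405 CPM at WT D8, against 551 and 546 CPM at WT D6 (-0.44 ± 0.08), and the cell cycle exit list had 7 of 20 members higher and 8 lower. That list is not of exit genes alone: its lower members include the G1 cyclins Ccnd2 and Ccnd3, which promote cycling. Of 20 p53 targets 15 were lower and 1 higher (median -0.81), among them the death receptor Fas, the inhibitor Cdkn1a and Ccng1, with Cdkn1a at 84.3 and 89.9 CPM at WT D8 and 151 and 165 CPM at WT D6.

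Several housekeeping families were also lower in many members. Of 82 genes of cytosolic ribosomal proteins 78 were lower and 2 higher, with a median of -0.82. Rps2 had 601 and 609 CPM at WT D8 and 1238 and 1317 CPM at WT D6 (-1.08 ± 0.06), with 48.8% of its sequence words shared with other genes. In 11 members with under 10% shared words, 9 were called lower and 1 higher. Of 40 proteasome genes 29 were lower (72.5%) and none higher. Of 37 complex I genes 20 were lower (54.1%) and none higher, and of 25 glycolysis and hypoxia genes 11 were lower (44%) and 5 higher. Over all tested genes 30.4% were lower, with 42.1% between 10 and 100 CPM and 59.5% at 100 CPM or more. The shares of the complex I and glycolysis lists thus lie between those of all genes at these levels. Gapdh, of which 27.2% of sequence words are shared, had 1046 and 1042 CPM at WT D8 and 1803 and 2017 CPM at WT D6, and Pfkp, the platelet form of phosphofructokinase, which the brain also uses, went the other way with 112 and 109.5 CPM at WT D8 and 29.2 and 26.9 CPM at WT D6. Of 24 cholesterol synthesis genes 2 rose, 6 fell and 16 missed the threshold.

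Regulators of chromatin were taken in a list for neurons and a list for progenitors, which also hold related factors. The neuron list, with the DNA dioxygenase Tet2 among its higher members, had 12 of 18 higher and 2 lower. The progenitor list had 8 of 15 lower (53.3%) and none higher, with a median of -0.14. Over all tested genes 30.4% were lower, and among those at 100 CPM or more 59.5%. The largest change of the progenitor list was that of Ptbp1, which is a splicing repressor and no chromatin protein. Actl6b and Dpf1, subunits of the neuronal BAF remodelling complex, averaged 26.1 ± 0.945 and 37.2 ± 0.0215 CPM at WT D8, against 2.51 ± 0.224 and 8.71 ± 2.38 CPM at WT D6. Their progenitor counterparts Actl6a and Dpf2 did not pass, with 107 ± 3.59 and 161 ± 1.25 CPM at WT D8 and 117 ± 13.1 and 169 ± 2.9 CPM at WT D6. The progenitor partner Phf10 was lower with a log2 fold change of -0.52, and Rest, the repressor of neuronal genes, fell to 65 and 63.6 CPM at WT D8, against 80.1 and 77 CPM at WT D6 (-0.29 ± 0.07, adjusted p = 0.00231).

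The largest gains and losses were chosen by size of change among genes with at least 5 CPM on one of the days. The highest included Slitrk1, Mab21l2, Gria2, Cadm2, Chl1, Cdh8, Fosb, Lin7a, Robo4, Pmfbp1 and Fam19a2. Mab21l2, a gene of midbrain and eye development, had 55.5 and 54.1 CPM at WT D8, against 0.454 and 0.927 CPM at WT D6 (6.32 ± 0.25), and Cdh8, a neuronal cadherin, 14.4 and 13.4 CPM at WT D8 and 0.212 and 0.232 CPM at WT D6 (5.95 ± 0.35). Most of these are adhesion or synapse genes, but Fosb is an immediate early gene, one that answers stimuli within minutes: it had 144 and 156 CPM at WT D8 and 2.7 and 2.15 CPM at WT D6 (5.94 ± 0.31). Of 24 immediate early genes 13 were higher and 5 lower, and Fos averaged 98.5 ± 3.19 CPM at WT D8 and 6.2 ± 1.65 CPM at WT D6.

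The 12 lowest were Agtr1a, Vgll3, Col8a1, Rln1, Hlx, Olfml1, Wdr86, Mt3, Npr3, Gstt1, Fas and Slco1a5. Agtr1a, an angiotensin receptor, fell to 6.2 and 7.91 CPM at WT D8, against 148 and 127 CPM at WT D6 (-4.29 ± 0.13). Vgll3, a cofactor of TEAD transcription factors, fell to 11.8 and 14.3 CPM at WT D8, against 227 and 189 CPM at WT D6 (-3.99 ± 0.20), and Col8a1, a short-chain collagen, to 4.32 and 4.79 CPM at WT D8, against 76.1 and 69 CPM at WT D6 (-3.99 ± 0.15). Rln1, a relaxin, fell to 14.4 and 15.2 CPM at WT D8, against 216 and 229 CPM at WT D6 (-3.91 ± 0.09). Agtr1a, Col8a1 and Rln1 were at their highest of the 5 WT days at D6. A signature of YAP and TAZ targets, chosen after these genes were seen, had 6 of 22 members higher (27.3%) and 10 lower (45.5%). Over all tested genes 26.6% were higher and 30.4% lower, with 42.1% lower between 10 and 100 CPM and 59.5% at 100 CPM or more. Ccn2, a lower member, had 52.2 and 53.7 CPM at WT D8 and 369 and 282 CPM at WT D6.

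Markers of other cell types were measured beside the neuronal genes, and their part in the results was not tested. Core and naive pluripotency genes had 12 of 24 members higher and 3 lower, from low levels: their summed CPM was 167 and 128 at WT D8, and 153 and 128 at WT D6. Pou5f1 had 17.6 and 7.49 CPM at WT D8, against 5.76 and 3.04 CPM at WT D6 (1.502 ± 0.31, adjusted p = 0.000541), and Nanog, which shares 10.4% of its sequence words, 5.72 and 3.83 CPM at WT D8 and 3.33 and 1.82 CPM at WT D6. Endoderm genes had 15 of 20 higher and 1 lower, summing to 2172 and 1539 CPM at WT D8 and to 927 and 802 CPM at WT D6, with Col4a1, a basement membrane collagen of many tissues, at 895 and 625 CPM at WT D8 and 229.96 and 182 CPM at WT D6. Foxa2 and Ttr, members that neural tissue also uses in floor plate and choroid plexus, had log2 fold changes of 2.79 and 3.51. Sox17 averaged 6.96 ± 2.1 CPM at WT D8 and 1.29 ± 0.613 CPM at WT D6, the endoderm factor Gata6 6.73 ± 3.2 CPM at WT D8 and 0.981 ± 0.498 CPM at WT D6, and Afp, which did not pass, 0.118 ± 0.0869 CPM at WT D8 and 0.0303 ± 0.0428 CPM at WT D6. Among the lists, the 2 WT D8 libraries differed most in the endoderm sum, with replicate 1 above replicate 2.

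Epithelial and trophoblast genes had 18 of 22 members higher and 2 lower, summing to 324 and 328 CPM at WT D8 and to 182 and 172 CPM at WT D6. Mesoderm genes had 8 of 18 higher and 2 lower with sums of 53.3 and 40.8 CPM at WT D8, against 20.1 and 18.3 CPM at WT D6, and T, the gene that defines early mesoderm, did not pass (1.26 ± 0.511 CPM at WT D8 and 1.01 ± 0.0264 CPM at WT D6). Neural crest genes had 9 of 16 higher and 2 lower, Tfap2b and Tfap2a, early crest factors, among the higher ones with log2 fold changes of 3.72 and 2.41, and Sox10 at 0.0726 ± 0.018 CPM at WT D8 and 0.0923 ± 0.0837 CPM at WT D6. Endothelial and blood genes had 5 of 14 higher and none lower, with Cdh5 at 7.0 and 8.42 CPM at WT D8 and 0.273 and 0.43 CPM at WT D6, and mesenchymal genes 6 of 17 higher and 7 lower, with Tagln, a smooth muscle gene, falling to 60.3 and 65.6 CPM at WT D8, against 239 and 236 CPM at WT D6. Among 28 imprinted genes 14 were higher and 9 lower, and Mest fell to 578 and 619 CPM at WT D8, against 2961 and 2827 CPM at WT D6 (-2.27 ± 0.06).

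Genes that first appeared at D8 were counted separately. The rule took genes with a mean under 1 CPM at each of WT D0, D2, D4 and D6 and of at least 5 CPM at WT D8, and it left 61. Ordered by CPM at WT D8, which is not corrected for transcript length, the first 12 were Gria2, Mab21l2, Chl1, Sncg, Lypd1, Rbfox1, Pcdh10, Lbx1, Myt1l, Pcdh9, Pmfbp1 and Slc17a6. Sncg, gamma synuclein, had 26.7 and 25.1 CPM at WT D8 and 0.939 and 0.96 CPM at WT D6, and Lypd1, which modulates nicotinic receptors, 24.5 and 23.5 CPM at WT D8 and 0.667 and 0.794 CPM at WT D6. Of the 61, 14 belong to the neurogenesis, neuron, transmitter or subtype lists, 10 more to a channel, receptor, guidance or protocadherin family, and 37 to none of these. In the TKO step 26 of them were higher and 1 lower, where 25.5% of all genes were higher and 24.5% lower, and 34 did not pass. In TKO 39 of the 61 had a mean of at least 1 CPM at D6, and 12 reached a mean of 5 CPM at D8. Their choice fixes that they rose in WT and on which side of these limits WT lay at D6 and D8. It thus favours a difference from TKO, and no test is drawn from it.

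**Figure D3:**
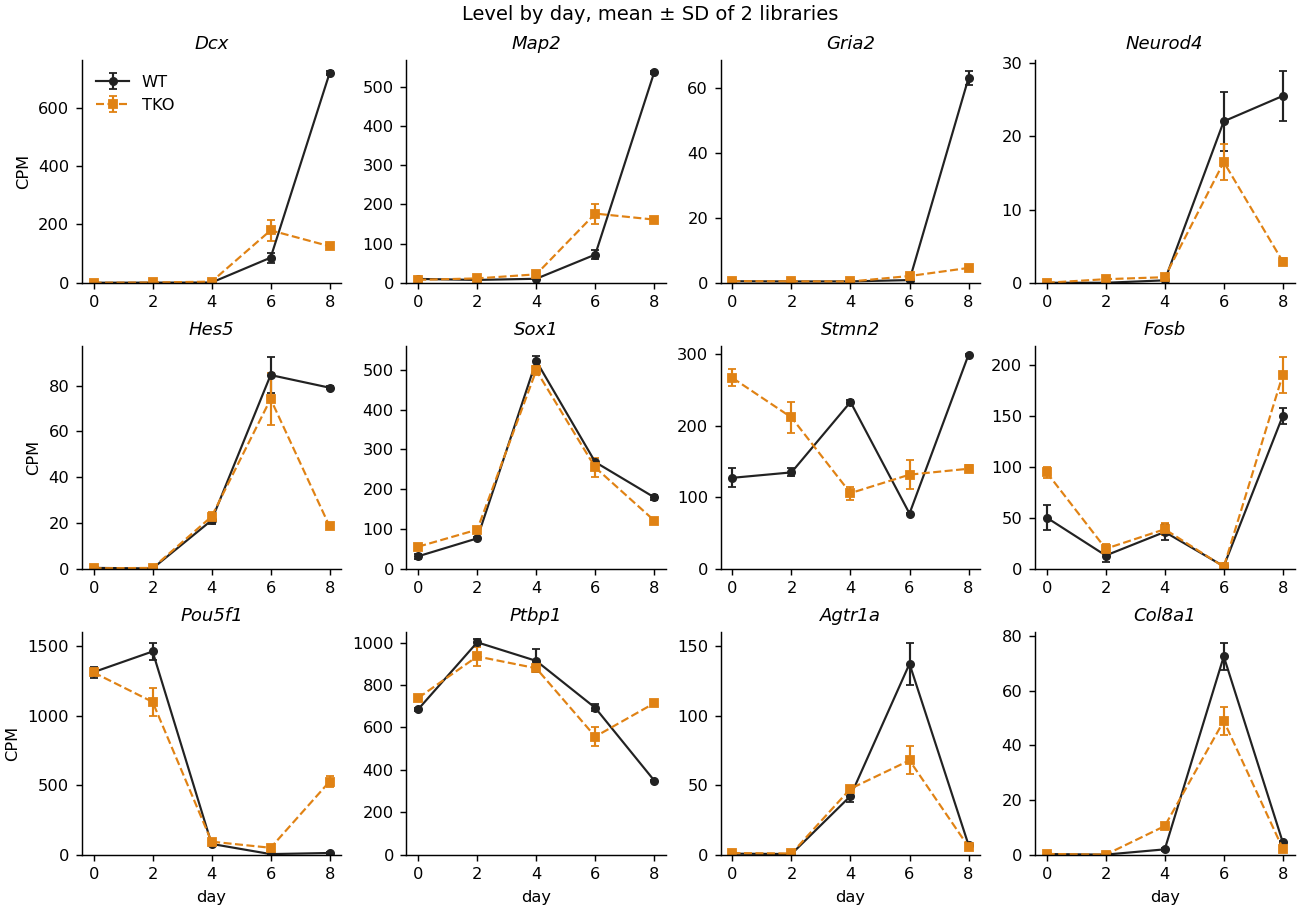
Mean CPM of 12 genes at D0, D2, D4, D6 and D8 in WT (black circles) and TKO (orange squares), with error bars of 1 SD over the 2 libraries of each day. Dcx, Map2 and Gria2 climb between WT D6 and WT D8, Agtr1a and Col8a1 peak at D6 in both genotypes, and Pou5f1 is higher at D8 than at D6 mainly in TKO.

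By shape over the 10 groups, the genes most like Dcx were Myt1, Dcc, Uncx, Nhlh2, Scrt1 and Celf3, with Pearson correlations of log levels of 0.991 to 0.995, a description over group means with no test. Uncx, a homeobox factor of midbrain and spinal neurons, averaged 59.3 ± 1.28 CPM at WT D8 and 11.7 ± 3.01 CPM at WT D6.

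The step was next set against the one before it, WT D6 against WT D4, in the same fit. In that earlier step 5072 genes were higher and 4832 lower, 53.4% of those tested, and the change between D6 and D8 differed from the change between D4 and D6 for 7731 genes (41.7%). Both steps share the WT D6 libraries, so a chance deviation of D6 enters them with opposite signs. Several proneural factors changed more in the earlier step: Neurog1 averaged 0.121 ± 0.0455 CPM at WT D4, with a log2 fold change of 8.43 at D6 and of 0.22 at D8 (difference -8.22, adjusted p = 1.24e-11). Neurod4 changed by 6.04 between D4 and D6 and by 0.21 between D6 and D8, and the neuropeptide gene Sst by 8.75 and then 0.56. The list of proneural genes had a median of 3.10 in the earlier step and 0.84 in the later one. Dcx had begun as well, with 6.80 in the earlier step and 3.06 in the later one (adjusted p of the difference 5.43e-08), whereas Map2 rose by 2.82 and then 2.90, with no difference that passed (adjusted p = 0.785).

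Some receptor and adhesion lists had larger medians in the later step, and others did not. Glutamate receptor genes had a median of 0.04 in the D4 to D6 step and 2.21 in the D6 to D8 step, and synaptic adhesion genes 0.42 and 1.72. The difference was called and positive for 14 of 25 glutamate receptor genes and 16 of 31 synaptic adhesion genes, and negative for 4 and 6. Nicotinic and muscarinic receptors had medians of 0.99 and then 0.65. Of 54 clustered protocadherins 7 had a positive difference, 7 a negative one and 40 none that passed. Gria2 changed by 0.96 in the earlier step and 6.25 in the later one (difference 5.30, adjusted p = 1.17e-07), and Cadm2, a synaptic adhesion gene, by -0.90 and 6.21. Among genes of at least 5 CPM at WT D4, D6 or D8, the largest positive differences between the steps were those of Wnt8a, Vrtn, Fosb, Bcl11a, Dppa2 and Cadm2. For Wnt8a, a signal of the early embryo, the loss before D6 was the larger part: it averaged 106 ± 15.9, 0.062 ± 0.0409 and 0.465 ± 0.107 CPM at WT D4, D6 and D8. Bcl11a, a factor of several neuron types, averaged 1.43 ± 0.0716, 0.204 ± 0.0544 and 10.5 ± 0.957 CPM at WT D4, D6 and D8. Dppa2 shares 33.8% of its sequence words with other genes. By the same rule the largest negative differences were those of Col8a1, Neurog1, Sst, Ppp1r17, Cp and Fas. Col8a1, Fas and Cp, ceruloplasmin, had risen by 5.20, 3.96 and 4.69 on the log2 scale in the earlier step.

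The WT step was then set against TKO cells between the same days. TKO D8 against TKO D6 called 4726 genes higher and 4552 lower (50% of those tested), and the WT change differed from the TKO change for 9258 genes (49.9%), more positive in WT for 4524 and more negative for 4734. Of 6004 genes called in both steps, 3368 moved the same way, 1057 were higher in the WT step and lower in the TKO step, and 1579 were lower in the WT step and higher in the TKO step. Of the 4935 genes higher in WT, 3000 had a change above that of TKO, and of the 5636 lower in WT, 3533 had one below it. The WT step enters both this choice of genes and the difference of steps. The choice thus favours these counts, and no test is drawn from them.

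Neuronal genes differed between the genotypes. Dcx had 713 and 724 CPM at WT D8 and 98 and 73.9 CPM at WT D6, whereas in TKO it had 125 and 125 CPM at D8 and 154 and 205 CPM at D6 (log2 fold change -0.52), a difference of steps of 3.58 ± 0.18 (adjusted p = 2.16e-10). Dcx was higher in TKO than in WT at D6, and lower at D8. Map2 in TKO had 156 and 166 CPM at D8 and 158 and 194 CPM at D6 and did not pass (adjusted p = 0.324), with a difference of steps of 3.03 ± 0.15. The cytoskeleton list had a median of 1.75 in the WT step and -0.30 in the TKO step, and the difference was positive and called for 27 of its 30 members. The proneural list had medians of 0.84 and -0.86, with 22 of 27 differences called and positive, and glutamate receptors 2.21 and 0.43, with 18 of 25.

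Neurod4 and Hes5, which did not pass in WT, fell in TKO. Neurod4 had 2.52 and 3.28 CPM at TKO D8 and 14.8 and 18.2 CPM at TKO D6 (log2 fold change -2.50, adjusted p = 1.62e-07; difference of steps 2.71), and Hes5 had 19.3 and 17.7 CPM at TKO D8 and 66.1 and 82.2 CPM at TKO D6 (-2.003, adjusted p = 9.08e-10; difference 1.91). Ptbp1 moved in opposite directions, to 719.9 and 709 CPM at TKO D8 against 588 and 526 CPM at TKO D6 (0.36; difference -1.34, adjusted p = 1.26e-09). Ribosomal protein genes did so too, with 78 of 82 lower in the WT step and 65 higher in the TKO step, where their median was 0.25.

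The difference of steps of pluripotency genes was called and negative for 10 of 24, called and positive for 3, and did not pass for 11. In the WT step 12 of 24 were higher with a median of 0.82, and in the TKO step 23 were higher with a median of 2.33. Pou5f1 had 553 and 499.6 CPM at TKO D8 and 55.4 and 44.2 CPM at TKO D6 (3.40; difference of steps -1.90, adjusted p = 0.000667). The largest positive differences of steps among genes of at least 5 CPM were those of Slitrk1, Nkx1-1, Pmfbp1, Xlr4b, Cdh8 and Fam19a2, and the largest negative ones included those of Xlr5a, Xlr5b, Tnfsf11, Dppa4 and Wt1. Xlr4b, Xlr5a and Xlr5b share 58.2%, 89.6% and 94.5% of their sequence words with relatives and each was near 0 in WT, so their place is uncertain. Dppa4, a stem cell gene, shares 40.1%. Nkx1-1, a homeobox gene, had 9.02 and 8.27 CPM at WT D8 and 0.212 and 0.265 CPM at WT D6, against 1.19 and 1.23 CPM at TKO D8 and 1.42 and 2.14 CPM at TKO D6.

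Several of the largest WT changes were also called in TKO. Fosb had 177 and 203 CPM at TKO D8 and 2.43 and 1.33 CPM at TKO D6 (6.62), and its difference of steps did not pass (adjusted p = 0.308). Agtr1a, Vgll3, Col8a1 and Rln1 also fell in TKO, with log2 fold changes of -3.57, -3.14, -4.43 and -4.60. Their difference of steps passed for Agtr1a (-0.72), Vgll3 (-0.85) and Rln1 (0.69), and did not for Col8a1 (adjusted p = 0.114). Mest fell to 859 and 834 CPM at TKO D8, against 3966 and 3467 CPM at TKO D6, with a difference of steps that did not pass (adjusted p = 0.181). Of the 12 lowest, Wdr86 and Gstt1 did not pass in TKO, Wdr86 with 7.76 and 7.5 CPM at TKO D8 and 8.89 and 6.14 CPM at TKO D6.

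**Figure D4:**
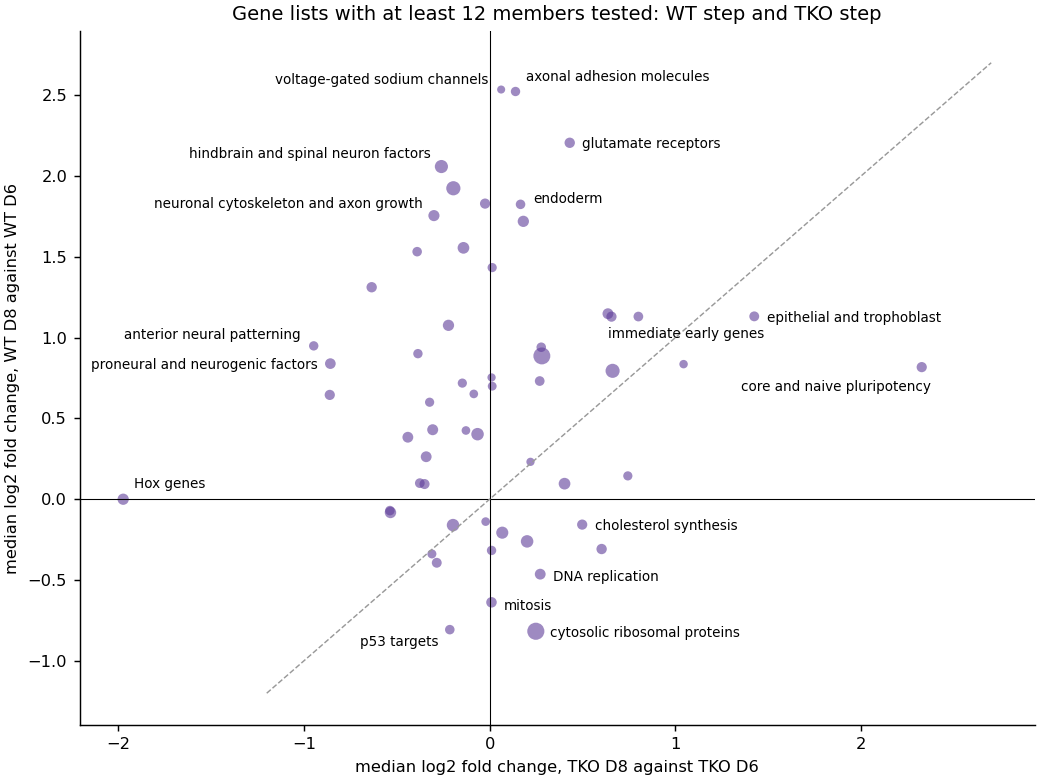
Median log2 fold change of each gene list with at least 12 tested members, WT D8 against WT D6 (vertical axis) and TKO D8 against TKO D6 (horizontal axis), with point size by number of members and the dashed line marking equal medians. The cytoskeleton list sits at 1.75 in WT and -0.30 in TKO, above the dashed line, and the list of core and naive pluripotency at 0.82 in WT and 2.33 in TKO, below it.

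Transcripts of the same gene also changed in proportion. Usage was tested for 12468 genes with more than 1 tested transcript, and 119 of them (0.954%) passed at an adjusted p under 1e-04, the limit used here because in simulated data 9 of 135 calls were false at it and 123 of 283 at 0.05. At 0.05, 725 genes (5.81%) passed. Of 40 genes with known neuronal splice forms, 11 passed at the stricter limit and 18 at 0.05. A share of a transcript is its percentage of the gene's TPM, and the inclusion of an exon is the TPM of transcripts with it as a percentage of these plus those that skip it, both as kallisto divided reads between annotated transcripts. Error in that division is in neither the p-values nor the simulation, which drew transcript counts directly, so the share of false calls among the real ones is not known.

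The first exons shown are pairs that exclude each other. Pkm, pyruvate kinase, carries either of a pair of exons, one used in adult muscle and brain (the M1 form, transcript Pkm-202) and one used in embryonic and growing cells (the M2 form, Pkm-201), and Ptbp1 is known to repress the M1 exon. The exons lie on chromosome 9 at chr9:59675029-59675195 and chr9:59675568-59675734 (GRCm38, GENCODE M21, + strand), are 167 bases each, and differ at 64 bases, shown in capitals because these let reads tell the forms apart.
Pkm-202 exon: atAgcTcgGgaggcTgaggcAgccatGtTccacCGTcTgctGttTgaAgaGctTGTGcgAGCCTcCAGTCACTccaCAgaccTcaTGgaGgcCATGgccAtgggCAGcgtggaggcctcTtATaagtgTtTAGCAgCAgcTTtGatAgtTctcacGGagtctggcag
Pkm-201 exon: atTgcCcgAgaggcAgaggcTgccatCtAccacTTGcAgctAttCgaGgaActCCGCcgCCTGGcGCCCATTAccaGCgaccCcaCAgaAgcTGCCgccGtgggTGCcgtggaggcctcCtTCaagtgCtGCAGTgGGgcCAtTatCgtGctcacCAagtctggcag
Of the TPM of Pkm-202 and Pkm-201 together, the M1 exon made up 16.4% and 16.4% at WT D8, against 3.10% and 2.91% at WT D6, and in TKO 4.64% and 5.31% at D8 and 3.10% and 4.19% at D6. On that scale the M2 exon still made up 83.6% in both WT D8 libraries, against 96.9% and 97.1% at WT D6. The WT gain was 13.4 points, and no TKO library of D6 or D8 exceeded 5.31%. Of all Pkm TPM, other transcripts included, Pkm-202 made up 14.1% and 14.2% at WT D8, against 2.93% and 2.74% at WT D6.

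Cdc42, a GTPase of cell shape and polarity, ends in either of a pair of last coding exons, and the brain form (Cdc42-201) ends in a different membrane-binding tail. The coding parts of these exons lie on chromosome 4 at chr4:137322533-137322619 for the brain form and chr4:137321106-137321192 for the common form (- strand), 87 bases each with 30 differing bases in capitals.
Cdc42-201 exon: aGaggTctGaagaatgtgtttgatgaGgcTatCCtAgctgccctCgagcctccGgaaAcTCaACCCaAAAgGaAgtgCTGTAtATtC
Cdc42-202 exon: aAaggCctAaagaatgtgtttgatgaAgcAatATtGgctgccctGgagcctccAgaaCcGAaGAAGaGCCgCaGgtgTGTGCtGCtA
The brain form made up 32.2% and 31.1% of Cdc42 TPM at WT D8, against 10.0% and 9.01% at WT D6 (adjusted p of the gene 1.39e-06). In TKO it made up 9.90% and 9.86% at D8 and 9.57% and 11.8% at D6. Both WT D8 libraries lay above every WT D6 and TKO library of the 2 days.

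Short exons were included more at WT D8 as a class. Inclusion was measured for 10041 coding internal exons with at least 10 TPM in all 4 WT libraries, an analysis chosen after the data were seen. Exons of 27 bases or fewer, the microexons, were included more by at least 10 points, with the libraries of D8 and D6 not overlapping, in 101 of 414 cases (24.4%), in 86 genes, and less in 8 (1.93%). Over all exons the shares were 4.75% higher and 3.58% lower. For 28 to 54 bases they were 8.81% and 2.74%, for 55 to 150 bases 3.34% and 3.37%, and above 150 bases 3.36% and 4.77%. Exons that share a gene or a stretch of transcript are not independent. Of the 101 microexons 94 had a length that is a multiple of 3 (93.1%), against 302 of all 414 (72.9%), so most leave the reading frame as it is.

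In TKO few microexons were included more. Of 389 microexons measured there, 7 were included more at TKO D8 (1.80%) and 16 less (4.11%), against 1.41% more and 2.28% less over all 9156 exons measured there. Of the 101 that rose in WT, 95 were measured in TKO, where 2 were higher and 6 lower, with a median change of -1.01 points. The median of the 101 in WT, 16.9 points, is fixed by their choice. In the WT step before, D6 over D4, 24 of 371 microexons were included more (6.47%) and 7 less (1.89%), against 1.69% and 1.63% over all 9096 exons measured there.

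The microexons shown here have large gains or a known neuronal form and were chosen after their values were seen. Capitals mark the exon and lower case the 15 transcript bases on each side.
Dctn1-203, 21-base exon: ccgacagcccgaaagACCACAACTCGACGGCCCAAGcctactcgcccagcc
Exoc1-203, 21-base exon: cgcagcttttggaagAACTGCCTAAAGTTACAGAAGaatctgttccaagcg
Nsmf-204, 6-base exon: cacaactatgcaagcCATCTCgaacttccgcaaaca
Asap1-210, 9-base exon: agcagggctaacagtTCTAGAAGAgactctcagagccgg
Src-202, 18-base exon: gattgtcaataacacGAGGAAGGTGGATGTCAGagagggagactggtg
Dctn1 encodes a subunit of dynactin, the partner of the dynein motor, and its exon (chr6:83187764-83187784, + strand) was included at 64.5% and 67.8% at WT D8, against 19.99% and 17.4% at WT D6. Exoc1, of the exocyst, which tethers vesicles at the membrane, had its exon (chr5:76540747-76540767, + strand) at 61.8% and 47.9% at WT D8, against 9.15% and 8.89% at WT D6. The exon of Nsmf, a synapse-to-nucleus messenger (chr2:25057965-25057970, + strand), was at 63.1% and 63.9% at WT D8 and 21.7% and 18.7% at WT D6. In all 3 the D8 libraries lay above both D6 libraries. That of Asap1, a regulator of Arf GTPases (chr15:64153844-64153852, - strand), was at 50.3% and 56.6% at WT D8 and 7.30% and 15.8% at WT D6. The Src exon (chr2:157458843-157458860, + strand), the N1 exon that makes the neuronal form of this kinase, was at 48.1% and 43.4% at WT D8, against 16.6% and 12.5% at WT D6. In TKO the Src exon was at 11% and 15.9% at D8 and 11.1% and 20.02% at D6, and the Dctn1 exon at 29.1% and 23.6% at D8 and 31.8% and 31.5% at D6, with no D8 library above both D6 libraries in either gene.

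Agrn encodes agrin, and the form that neurons make, with the y and z inserts, gathers acetylcholine receptors at the synapse. These 3 exons, all in Agrn-203, lie on chromosome 4 (- strand) and were each included more at WT D8. The sequences are shown to identify the inserts, with the exon in capitals.
Agrn, 12-base exon: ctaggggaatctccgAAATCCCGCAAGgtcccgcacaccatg
Agrn, 24-base exon: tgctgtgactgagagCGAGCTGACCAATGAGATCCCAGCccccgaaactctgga
Agrn, 33-base exon: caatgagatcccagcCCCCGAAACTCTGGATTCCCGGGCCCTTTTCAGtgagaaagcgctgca
The 12-base exon (chr4:156169546-156169557) was included at 40.9% and 38.6% at WT D8, against 17.5% and 14.7% at WT D6. The 24-base exon (chr4:156168546-156168569) was at 48.2% and 47.4% at WT D8 and 27.5% and 29.3% at WT D6, and the 33-base exon (chr4:156167777-156167809) at 18.8% and 14.5% at WT D8 and 6.46% and 4.01% at WT D6. All 3 exons rose in both D8 libraries. Agrn as a whole passed the usage test with an adjusted p of 4.83e-07, but Agrn-203 itself did not pass it (adjusted p = 0.0725). Agrn-202, whose share fell, passed with an adjusted p of 3.17e-07.

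The exons of Enah, Clta and Afdn are shown as named members of the usage test, with the exon in capitals.
Enah-205, 12-base exon: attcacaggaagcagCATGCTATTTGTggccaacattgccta
Clta-204, 54-base exon: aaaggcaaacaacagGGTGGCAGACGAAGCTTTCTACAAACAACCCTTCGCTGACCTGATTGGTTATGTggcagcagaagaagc
Afdn-209, 45-base exon: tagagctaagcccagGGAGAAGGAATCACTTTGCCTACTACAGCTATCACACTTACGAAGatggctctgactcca
Enah, an actin regulator of growth cones, included its exon (chr1:181945041-181945052, - strand) at 25.7% and 24.1% at WT D8, against 3.80% and 11.3% at WT D6. Clta, clathrin light chain A, included the exon of its brain form (chr4:44030215-44030268, + strand) at 33.5% and 34.0% at WT D8, against 6.45% and 6.01% at WT D6, and at 9.15% and 8.99% at TKO D8 and 6.38% and 11.6% at TKO D6. Afdn, afadin, a junction protein (chr17:13825943-13825987, + strand), stood at 49.9% and 55.8% at WT D8 and at 19.2% in both WT D6 libraries. Clta itself averaged 136 ± 0.833 CPM at WT D8 and 171 ± 9.54 CPM at WT D6, and its level fell slightly while its exon gained 27.5 points.

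**Figure D5:**
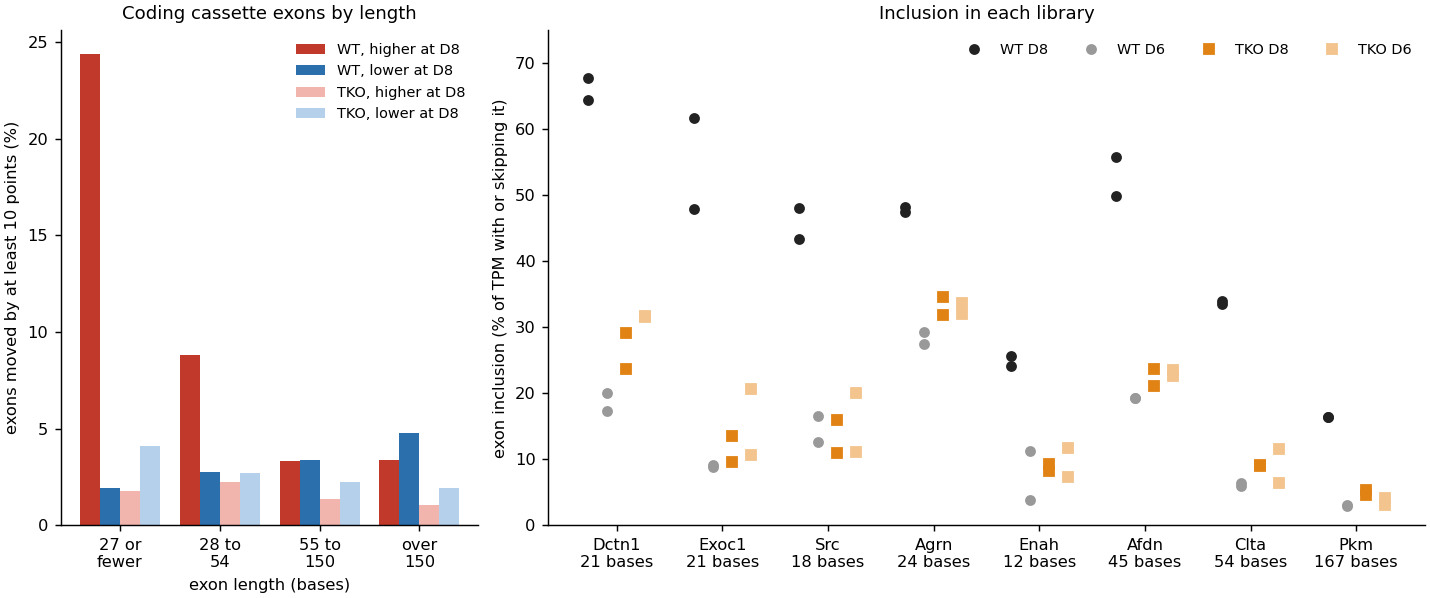
Left, share of coding internal exons whose inclusion was at least 10 points higher or lower at D8 than at D6 with no overlap of the libraries, by exon length in bases, for WT and TKO. Right, inclusion of 8 exons in each library of WT D8, WT D6, TKO D8 and TKO D6, in percent of the TPM of transcripts with the exon and those that skip it; the WT D8 points lie above all others for every exon.

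Other genes changed at longer stretches. For Tpm1, a tropomyosin, transcript Tpm1-211 made up 12.4% and 9.21% of Tpm1 TPM at WT D8 and 0 in both WT D6 libraries, while Tpm1 as a gene fell by 2.16 on the log2 scale. On the earlier days its share was 11.3% and 16.96% at WT D0, 12.2% and 14.5% at WT D2, and 2.37% and 2.53% at WT D4, so the D8 share lay near that of D0 and D2. In TKO the transcript made up 12.7% and 14.4% at D8, against 1.81% and 2.93% at D6. For Ank2, whose giant exon makes the axonal form of ankyrin B, the giant exon of 6198 bases was included at 76.8% and 79.0% at WT D8, against 33.8% and 31.4% at WT D6. In TKO that exon stood at 43.0% and 44.6% at D8 and 48.7% and 54% at D6. Outside the list, the genes with the smallest adjusted p included Afdn, Kdm2b, Ctnnb1, Gse1 and Ankrd10. In all of these but Gse1, the small p went with a transcript near 0 TPM in a WT D8 library or both. Afdn-214 had 1.33e-05 and 2.25e-06 TPM at WT D8, against 11.7 and 12.5 TPM at WT D6. Such places rest on how kallisto divided reads. The same holds for Tpm1-211, at 0 TPM in both WT D6 libraries. Gse1-201 rose to 16.0% and 19.6% of Gse1 at WT D8, against 1.63% and 1.65% at WT D6. Kdm2b-201, of a histone demethylase gene, made up 54.8% and 58.9% at WT D8 and 27.1% and 27.5% at WT D6.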

How the data were processed

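RNA of 20 libraries (WT and TKO, D0, D2, D4, D6 and D8, 2 each) was read as stranded mRNA libraries, per the labels' protocols. Per the submitters' processing notes, reads were trimmed with Trim Galore 0.6.2 and quantified with kallisto, whose version is not given in the sources used here, on GRCm38. The deposited tables give estimated counts and TPM per transcript, both made by the authors. Estimated counts were summed per gene of GENCODE M21, rounded and scaled by TMM. Of 119414 transcripts 2686 matched no gene and held 0.943% to 1.1% of counts, which stayed out. TPM served transcript shares and exon inclusion only.

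All comparisons are contrasts of 1 edgeR 4.0.16 quasi-likelihood fit over the 20 libraries in 10 groups (18555 genes after filterByExpr, common biological coefficient of variation 0.0689, 10 residual degrees of freedom), Benjamini-Hochberg adjusted p under 0.05. Every adjusted p is edgeR's. Transcript usage was tested with edgeR's diffSpliceDGE. Counting intervals are exact at 95% and cover counting error only, and floors are 3 counts. Genes sharing 10% or more of their 31-base words with other genes are named as uncertain.

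The members and all 62 gene lists were chosen with earlier results of these data known. The rule for named genes took 23 fixed genes, the 12 highest and 12 lowest changes, up to 4 of each list, the 6 highest and lowest differences of steps, and the genes with the smallest usage p; some of these are not reported here. In simulated counts for WT D8 against D6 (18304 genes), 50 of 67 genes changed 1.5-fold, 55 of 67 changed 2-fold and 64 of 66 changed 4-fold were recovered with 11 false calls. Simulated usage (12167 genes, 200 changed) gave 126 recovered and 9 false of 135 calls at 1e-04. Alternatives changed the scaling, filter, tool (DESeq2 1.42.0), length scaling, libraries fitted, thresholds and replicates.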

Additional observations from a re-analysis of the deposited data

Results flagged for a closer look

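Each value here is the log2 change of the WT step (D8 over D6) minus that of the TKO step, and each was picked out because that difference passed an adjusted p under 0.05 in edgeR. The same was so for 9258 of 18555 genes, so a difference of this kind was common. Among neuron and proneural genes it was 2.64 for Tubb3, 3.58 for Dcx, 3.03 for Map2, 1.87 for Stmn2, 2.45 for Elavl3, 1.58 for Neurog2, 2.01 for Neurod1 and 2.71 for Neurod4. For the transmitter genes Slc17a6 and Gad1 it was 3.96 and 4.50.

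In progenitor and Notch genes it was 1.91 for Hes5, 1.19 for Dll1, 0.49 for Sox1, -0.25 for Sox2, 1.10 for Pax6, 0.92 for Nes and 2.16 for Fabp7. Pou5f1 had -1.90, Rest -1.01, Ptbp1 -1.34 and Cdkn1c 0.33. Among genes of at least 5 CPM in a WT or TKO group of D6 or D8, the largest positive differences were 6.40 for Slitrk1, 5.71 for Nkx1-1, 5.68 for Pmfbp1, 5.52 for Xlr4b, 5.51 for Cdh8 and 5.49 for Fam19a2. The largest negative ones of these genes included -6.76 for Xlr5a, -6.40 for Xlr5b, -4.42 for Tnfsf11, -4.16 for Dppa4 and -4.16 for Wt1. The values of the Xlr genes rest on WT levels near 0 and depend on the prior count of the fit.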

How the results depend on the processing

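Of the counts reported, 129 values under another setting stayed within 1.5 times and 19 did not. A 2-fold minimum left 2689 genes higher and 928 lower in the WT step, 2189 and 1652 in its difference from the TKO step, and 2106 and 1768 in its difference from the D4 to D6 step. With no fold minimum, the WT step had 4935 genes higher and 5636 lower, and 4006 to 4296 and 4886 to 5270 without 1 replicate. On the same terms, without 1 replicate, its difference from the TKO step gave 3835 to 4184 and 4340 to 4582. Its difference from the D4 to D6 step gave 2257 to 3124 and 3555 to 4333. Transcript usage, 725 genes at 0.05, gave 381 at 0.01, 119 at 1e-04, 1216 with the compared groups alone, and 382 to 418 without 1 replicate. Onset, 61 genes, gave 22 under a limit of 0.5 CPM before D8 and 18 with at least 10 CPM at D8. Of microexons, 38 were higher and 1 lower at 20 points, 3 were lower at 21 bases or fewer, and 99 to 105 were higher and 10 to 18 lower without 1 replicate, 18 being without WT D8 replicate 1. The causes were not tested. Lists with more members higher than lower numbered 45 to 48 without 1 replicate. The balance of progenitor, stress response, mesenchyme, kinesin and mitochondrial gene lists turned under some setting.

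Same-numbered libraries of WT D6 and WT D8 hardly deviated together (r = 0.04). Over 45 pairs of groups r ran from -0.15 to 0.21. The highest was that of WT D6 with TKO D6, and WT D8 with TKO D8 had 0.13. A replicate block gave 4916 genes higher and 5623 lower in the WT step and 662 genes for usage. For named genes, no direction reversed, while 130 values lost the call and 3 gained it. With 2 libraries a group at 29314561 to 31542594 counts, genes of a few counts are the least certain.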
